A study of Homo sapiens with 6 samples.

Results

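Aminoacyl-tRNA synthetases join each amino acid to its tRNA and so supply the ribosome with charged tRNAs. Most amino acids have 1 enzyme for the cytosol and another, from a separate nuclear gene, for the mitochondrion, where the enzyme serves the translation of the few proteins encoded by mitochondrial DNA. Many cytosolic enzymes are held together by scaffold proteins in the multisynthetase complex. Uncharged tRNA activates the kinase GCN2, encoded by EIF2AK4, and the transcription factor ATF4 that acts downstream of it is known to raise several cytosolic synthetase genes.

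The genes were taken by symbol, as protein-coding genes named for a synthetase, with the cytosolic enzymes or subunits (20 genes), the mitochondrial enzymes (17 genes) and the scaffold proteins AIMP1, AIMP2 and EEF1E1 (3 genes) kept apart. These are 40 of the 63241 genes in the files, and all 40 passed the filter on low counts. RNA-seq libraries came from the wild-type triple-negative breast cancer line MDA-MB-231, of human origin, exposed for 24 h to 5 μM NCD (nitidine chloride, a plant alkaloid) or to the vehicle, 0.1% DMSO, with 3 libraries in each group. One cell line at 1 dose and 1 time was measured, and the labels do not say whether the libraries of a group came from separate experiments, so p-values measure the spread between these libraries. The free text for NCD replicates 2 and 3 carries other cell line numbers, whereas their cell line field reads MDA-MB-231.

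Expected counts summed to 18223594 to 19410833 per library with DMSO and to 18232169 to 21629653 with NCD. The mesenchymal markers VIM, CD44, AXL and CAV1 were present, with means from 713.0 to 3056 CPM in DMSO, and all 4 were lower at any fold with NCD (log2 fold changes from -1.82 for CD44 to -0.21 for VIM). ESR1, PGR and CDH1 reached at most 7 counts in a library, and the leukocyte and liver genes PTPRC, CD3E and ALB at most 2. Among libraries of a group, counts differed most from the others in DMSO replicate 2 and NCD replicate 3. CPM here are read counts scaled to a common library size by TMM (trimmed mean of M values), and log2 fold changes are NCD against DMSO from edgeR's quasi-likelihood test. Over 15295 tested genes, those with an absolute log2 fold change above 1 and an adjusted p (Benjamini-Hochberg) below 0.05 were called differentially expressed. Changes past the adjusted p alone are given as changes at any fold.

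With NCD the genes for the mitochondrial enzymes were on balance lower, while those for the cytosolic enzymes split in both directions. Of the 17 mitochondrial genes, 5 were differentially expressed lower (FARS2, LARS2, WARS2, NARS2 and MARS2) and 1 higher (TARS2). Of the 20 cytosolic genes, 2 were differentially expressed higher (WARS1 and SARS1) and 2 lower (FARSB among them), and no scaffold gene was. Over all tested genes 13.5% were differentially expressed higher and 17.5% lower. At any fold, 9 cytosolic genes were higher and 8 lower, and 5 mitochondrial genes were higher and 10 lower, against 35.3% higher and 34.1% lower over all tested genes. The CPM of the groups did not overlap for 14 of the 40 genes that were higher and 19 that were lower with NCD, against 37.2% and 35.3% of all tested genes. These are shares of each library, and they measure neither the number of cells nor the amount of RNA per cell. Scaling by library totals in place of TMM turned these splits to 11 higher and 6 lower cytosolic genes and to 7 higher and 9 lower mitochondrial genes, while the differentially expressed members stayed 4 cytosolic and 6 mitochondrial. Under that scaling the median over all tested genes moved from 0.04 to 0.23 on the log2 scale.

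The median log2 fold change was 0.09 over the cytosolic genes and -0.54 over the mitochondrial genes, beside 0.04 over all tested genes. Taken for each NCD library against the DMSO mean, the mitochondrial median was -0.50, -0.52 and -0.52, and the cytosolic median was 0.13, 0.10 and 0.02. Both classes held genes on either side of zero, from -1.84 to 1.39 among the cytosolic and from -5.15 to 1.11 among the mitochondrial genes. The summed level of the cytosolic genes was 4624, 4509 and 4463 CPM with DMSO and 5064, 4924 and 4934 CPM with NCD. The summed mitochondrial level was 680, 669 and 662 CPM with DMSO and 544, 537 and 527 CPM with NCD. The groups did not overlap in either sum, the cytosolic sum being higher and the mitochondrial sum lower in every NCD library. The mean cytosolic sum went from 4532 to 4974 CPM. WARS1 alone went from a mean of 180.9 to 474.7 CPM, and SARS1 from 255.2 to 557.5 CPM. Their rises together exceed that of the sum, so with TMM scaling the mean sum of the other cytosolic genes was lower with NCD. That fall is smaller than the gap in TMM factors (0.9115 to 0.9494 with DMSO, 1.059 to 1.092 with NCD). With library totals in place of TMM, the sum of the other cytosolic genes was higher with NCD. On a per-length scale, the median level in DMSO was 39.3 CPM per exonic kb for the cytosolic and 6.34 for the mitochondrial genes.

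**Figure D1:**
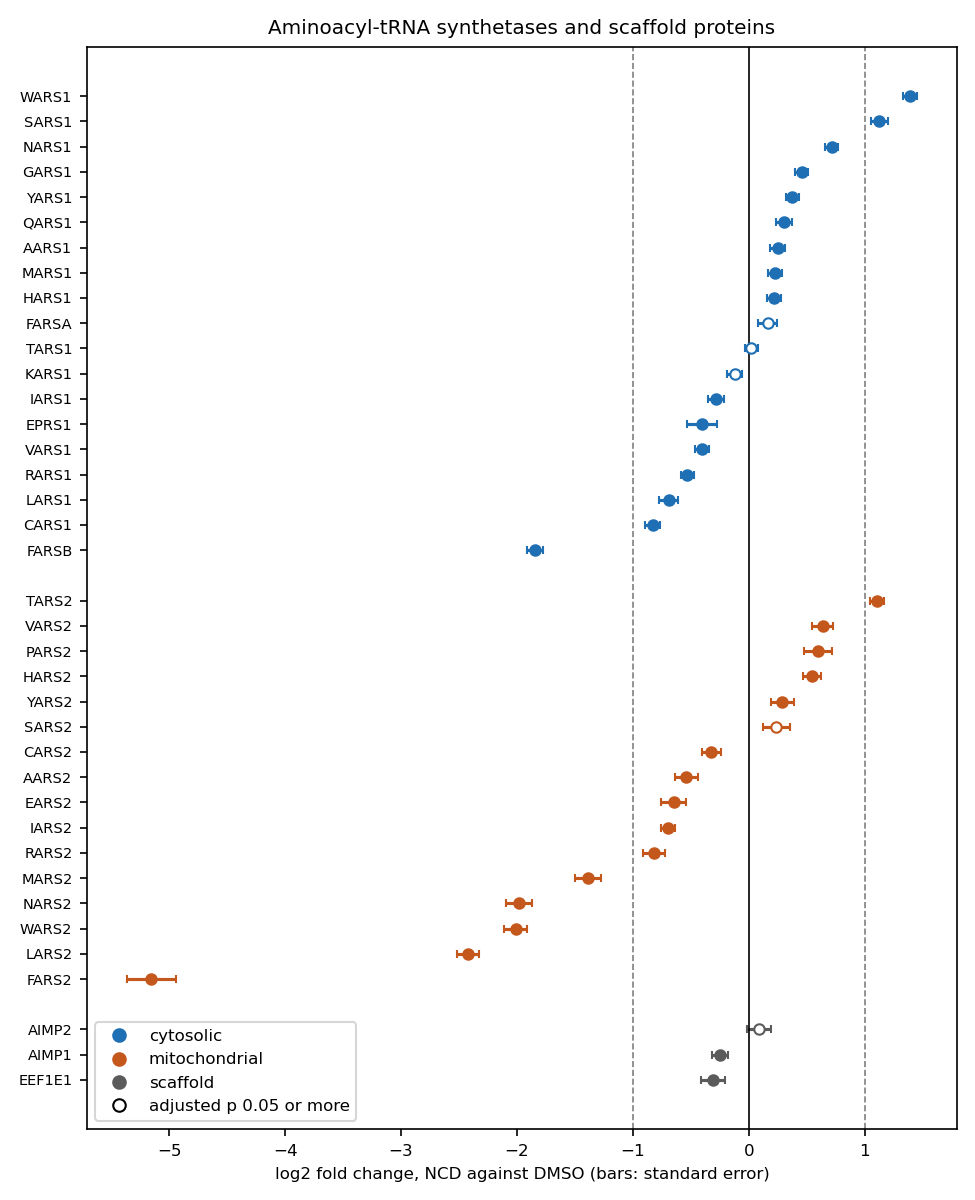
Log2 fold change (x axis, NCD against DMSO) of the genes reported by name, ordered within each class, with bars for the standard error from 3 libraries per group, dashed lines at the fold threshold, and open symbols where the adjusted p was 0.05 or more. The mitochondrial genes reach from -5.15 (FARS2) to 1.11 (TARS2) and the cytosolic genes from -1.84 (FARSB) to 1.39 (WARS1). Of the genes drawn, KARS1 turns positive under scaling by library totals, and TARS1, close to zero, turns negative with DESeq2.

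WARS1 encodes the cytosolic tryptophanyl-tRNA synthetase, a gene known to respond to interferon. It lies at chr14:100333788-100376805 on the minus strand (GENCODE release 29, GRCh38). Its level was 189, 184 and 169 CPM in the DMSO libraries and 486, 479 and 459 CPM in the NCD libraries. Every NCD library stood above every DMSO library, and the mean went from 180.9 ± 10.4 to 474.7 ± 14.0 CPM (SD, n = 3). The rise on the log2 scale was 1.39 (standard error 0.06, edgeR adjusted p = 1.58e-07), the largest among the 40 genes.

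SARS1 encodes the cytosolic seryl-tRNA synthetase, which also charges the tRNA for selenocysteine (chr1:109213918-109238169, plus strand). It had 266, 236 and 264 CPM with DMSO and 581, 571 and 521 CPM with NCD, again without overlap. The log2 fold change was 1.13 (standard error 0.07, edgeR adjusted p = 1.24e-06). With NCD, SARS1 had the highest per-length level of the 40 genes, 145.3 CPM per exonic kb, whereas with DMSO that place was held by KARS1 at 110.2.

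FARSB encodes the beta subunit of the cytosolic phenylalanyl-tRNA synthetase (chr2:222570536-222656337, minus strand) and had 89.1, 83.5 and 90.8 CPM with DMSO and 25.8, 23.2 and 24.3 CPM with NCD. The groups were well apart, at a log2 fold change of -1.84 (standard error 0.07, edgeR adjusted p = 7.42e-08), the lowest of the cytosolic genes. The enzyme is built of alpha and beta subunits, and FARSA, which encodes the alpha subunit, had a log2 fold change of 0.16 that did not pass the test (edgeR adjusted p = 0.0994). FARSA passed as higher without NCD replicate 3 (0.22, adjusted p = 0.0138) and with library totals (0.36, adjusted p = 0.00173). On the per-length scale the mean level of FARSB against FARSA was 26.1 against 31.4 CPM per exonic kb with DMSO and 7.25 against 35.2 with NCD.

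Of the other cytosolic genes, NARS1 (asparaginyl) had the largest rise below the fold threshold. It had 211, 193 and 204 CPM with DMSO and 330, 330 and 338 CPM with NCD, and rose by a log2 fold change of 0.71 (edgeR adjusted p = 4.30e-06). Smaller rises at any fold were those of GARS1 (0.46), YARS1 (0.38), QARS1 (0.30), AARS1 (0.25), MARS1 (0.23) and HARS1 (0.22). The falls at any fold outside the fold threshold were those of CARS1 (-0.83), LARS1 (-0.69), RARS1 (-0.53), VARS1 (-0.41), EPRS1 (-0.41) and IARS1 (-0.28). The calls for AARS1, HARS1 and MARS1 were lost without DMSO replicate 3 (adjusted p = 0.0602, 0.0564 and 0.100) and without NCD replicate 1 (0.0536, 0.0768 and 0.0790), and that for EPRS1 when DMSO replicate 2 (0.0675), NCD replicate 1 (0.0577) or NCD replicate 2 (0.0777) was left out, all from edgeR. The IARS1 and EPRS1 calls were also lost with library totals (adjusted p = 0.355 and 0.230), and AARS1, HARS1, MARS1, EPRS1 and IARS1 did not pass with ribosomal protein genes as reference (edgeR adjusted p from 0.1435 to 0.193). TARS1 had a log2 fold change of 0.02 (edgeR adjusted p = 0.766), and passed as higher with library totals (0.22, adjusted p = 0.00366).

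GARS1 and KARS1 each encode both the cytosolic and the mitochondrial form of their enzyme, for glycine and lysine, and QARS1 has no separate mitochondrial partner gene. GARS1 had 327, 313 and 335 CPM with DMSO and 463, 430 and 444 CPM with NCD, without overlap (edgeR adjusted p = 0.000104). KARS1 had 474, 418 and 452 CPM with DMSO and 422, 421 and 392 CPM with NCD. Its groups overlapped and its log2 fold change of -0.12 did not pass the test (edgeR adjusted p = 0.132), except without DMSO replicate 2, where it was -0.18 (0.0362). QARS1, which belongs to the multisynthetase complex, had 180, 162 and 173 CPM with DMSO and 215, 223 and 199 CPM with NCD, all higher with NCD (edgeR adjusted p = 0.00284).

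**Figure D2:**
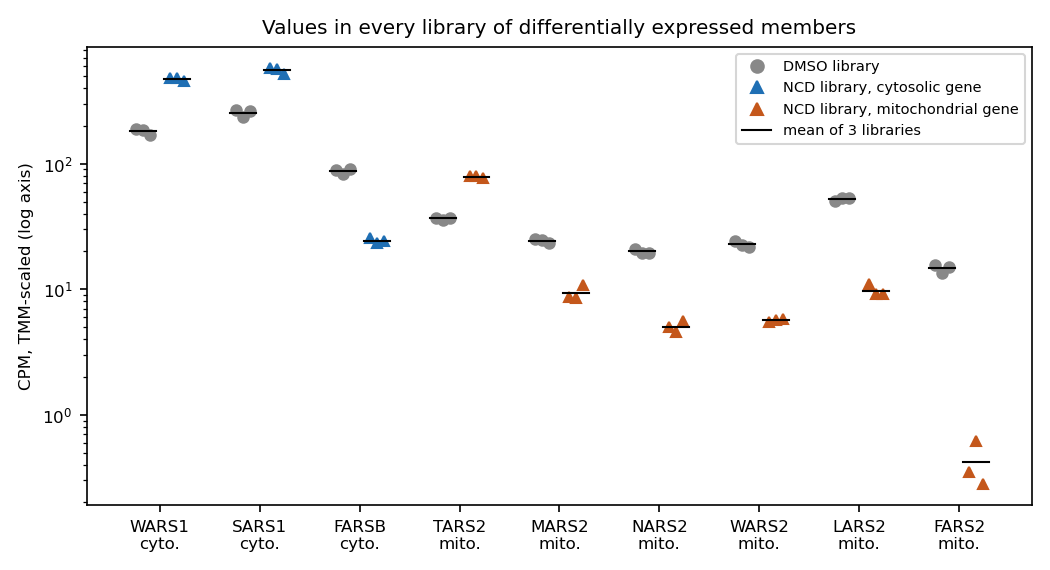
CPM on a log axis in each of the 6 libraries for the differentially expressed genes reported by name, with DMSO libraries as grey circles, NCD libraries as coloured triangles and a line at each mean of 3. No gene drawn has overlapping groups, and FARS2 goes from between 13.6 and 15.7 CPM to between 0.280 and 0.621 CPM.

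Among the mitochondrial enzymes the largest fall was that of FARS2, the phenylalanyl-tRNA synthetase of the organelle (chr6:5261044-5829192, plus strand). It had 15.7, 13.6 and 15.1 CPM with DMSO and 0.350, 0.621 and 0.280 CPM with NCD, where the expected counts were 8, 12 and 6. The log2 fold change was -5.15 (standard error 0.22, edgeR adjusted p = 9.66e-08), the lowest of the 40 genes, and it lay between -5.52 and -4.96 when single libraries were left out. LARS2, the leucyl enzyme (chr3:45388506-45549421, plus strand), had 50.3, 53.6 and 53.3 CPM with DMSO and 11.01, 9.16 and 9.09 CPM with NCD. The groups were separate and the log2 fold change was -2.42 (standard error 0.10, edgeR adjusted p = 7.38e-08).

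WARS2, the tryptophanyl enzyme (chr1:119031216-119140671, minus strand), had 24.3, 22.4 and 21.7 CPM with DMSO and 5.51, 5.69 and 5.78 CPM with NCD. NARS2, the asparaginyl enzyme (chr11:78435961-78574874, minus strand), had 21.1, 19.4 and 19.6 CPM with DMSO and 4.98, 4.55 and 5.59 CPM with NCD. Both genes were lower in every NCD library, by log2 fold changes of -2.01 (standard error 0.10, edgeR adjusted p = 2.26e-07) and -1.98 (standard error 0.11, edgeR adjusted p = 5.33e-07). WARS2 shares 180 exonic bases with WARS2-AS1 on the opposite strand, whose counts reached 222% of those of WARS2 in a library, so its counts are uncertain if strand was not used. MARS2, the methionyl enzyme (chr2:197705369-197708387, plus strand), whose annotated exons cover its whole span, had 24.9, 24.7 and 23.6 CPM with DMSO and 8.70, 8.49 and 10.9 CPM with NCD. It was lower in every NCD library, with a log2 fold change of -1.38 (standard error 0.11, edgeR adjusted p = 5.42e-06).

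TARS2, the threonyl enzyme (chr1:150487364-150507609, plus strand), had 37.1, 35.9 and 37.2 CPM with DMSO and 80.6, 79.9 and 76.8 CPM with NCD. It rose in every NCD library by a log2 fold change of 1.11 (standard error 0.06, edgeR adjusted p = 5.58e-07), the only mitochondrial gene differentially expressed higher. Smaller rises at any fold were those of VARS2 (0.64), PARS2 (0.60), HARS2 (0.54) and YARS2 (0.29), and smaller falls those of RARS2 (-0.82), IARS2 (-0.70), EARS2 (-0.65), AARS2 (-0.54) and CARS2 (-0.32). The YARS2 call was lost when any one of DMSO replicates 2 and 3 and NCD replicates 1 and 2 was left out. The edgeR adjusted p then ran from 0.0859 to 0.1145. That call was also lost with ribosomal protein genes as reference (edgeR adjusted p = 0.0779). The CARS2 call was lost with library totals (log2 fold change -0.125, edgeR adjusted p = 0.158). SARS2 (0.24) did not pass the test (edgeR adjusted p = 0.0995), but did without NCD replicate 3 (0.30, adjusted p = 0.0314) and with library totals (0.43, adjusted p = 0.00822).

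In 18 pairs of a cytosolic and a mitochondrial gene for the same amino acid, the ratio of their CPM within a library does not depend on how libraries are scaled. FARS2 and EPRS1 each entered 2 pairs, since FARS2 faces both cytosolic subunits and EPRS1 charges glutamate and proline. The cytosolic to mitochondrial ratio was above all DMSO values in all 3 NCD libraries for 10 pairs and below them for 6, and the groups overlapped for EPRS1 with EARS2 and YARS1 with YARS2. An exact two-sided permutation test of 3 against 3 cannot go below 0.1. It gave 0.1 for the 16 pairs without overlap, or 0.1125 adjusted over the 18 pairs, so no single pair can pass 0.05.

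Both genes were differentially expressed in the tryptophan pair, with WARS1 at 7.90 times WARS2 in DMSO and 82.4 times in NCD. The same held for FARSB and FARS2, with a ratio that went from 5.91 to 48.9. The NARS1 to NARS2 ratio went from 10.1 to 64.8, LARS1 to LARS2 from 4.80 to 15.9, and MARS1 to MARS2 from 7.31 to 22.3. FARSA went from 5.15 to 171.0 times FARS2, and the ratios of FARSA and FARSB to FARS2 with NCD rest on its 6 to 12 counts there. The ratio moved the other way for TARS1 to TARS2, from 13.5 to 6.35. It also fell for VARS1 to VARS2 (6.32 to 3.08), EPRS1 to PARS2 (32.5 to 16.1), CARS1 to CARS2 (2.26 to 1.59) and HARS1 to HARS2 (4.45 to 3.56). These ratios come from the mean log2 CPM of each group with a prior count of 2 added. They are not corrected for transcript length, so only their change is read. The log2 FARSA to FARS2 ratio rose by 5.05 with that prior count and by 5.30 with a prior count of 0.5.

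**Figure D3:**
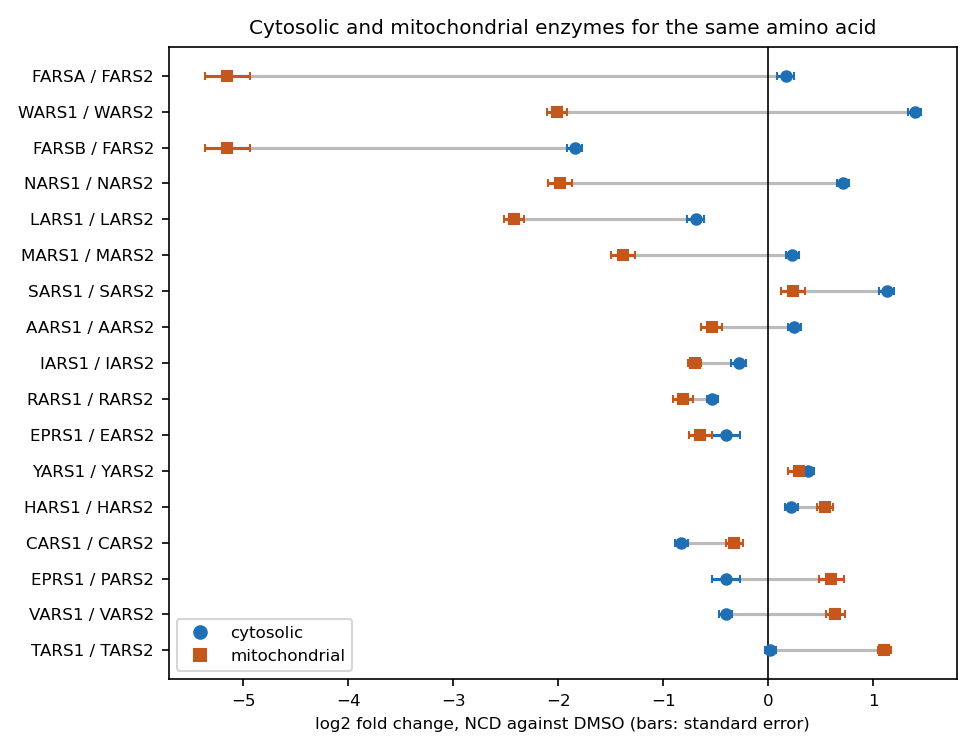
Log2 fold change (x axis, NCD against DMSO) of the cytosolic gene (circle) and the mitochondrial gene (square) in pairs reported by name, with bars for the standard error from 3 libraries per group and pairs ordered by the difference. The cytosolic value lies above the mitochondrial value in 12 of the pairs drawn, by most for FARSA and FARS2, and below it in the others, such as TARS1 and TARS2.

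The multisynthetase complex is formed by 8 of the cytosolic genes, among them EPRS1, IARS1, LARS1, MARS1, QARS1, RARS1 and KARS1, and the 3 scaffold genes. Of these 11 genes, 2 were higher at any fold (MARS1 and QARS1), 7 were lower and 2 did not pass the test, with a median log2 fold change of -0.28, beside 35.3% higher and 34.1% lower over all tested genes. The split was 3 higher and 3 lower with library totals, 1 and 4 with ribosomal protein genes as reference, and 2 and 4 without NCD replicate 2, and 1 gene was higher without DMSO replicate 3 or NCD replicate 1. Of the 12 cytosolic genes outside the complex, 7 were higher, 3 lower and 2 did not pass, with a median of 0.23. The median span was 55.9 kb for the 8 enzymes of the complex, 33.7 kb for all 11 genes and 33.0 kb for the 12 outside it. Neither the difference between these lists nor the part of span in it was tested. The summed level of the 11 genes was 2418, 2379 and 2325 CPM with DMSO and 1963, 1913 and 1994 CPM with NCD, lower in each NCD library.

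The scaffold genes had small changes. AIMP1, whose product also gives rise to a secreted cytokine, had 105.2, 106.7 and 105.2 CPM with DMSO and 85.9, 84.5 and 97.0 CPM with NCD, a log2 fold change of -0.25 without overlap (edgeR adjusted p = 0.00985, and 0.0531 without NCD replicate 2). EEF1E1, also known as AIMP3, had 115.8, 85.9 and 101.9 CPM with DMSO and 86.7, 81.4 and 77.4 CPM with NCD. Its groups overlapped through DMSO replicate 2, and its log2 fold change of -0.31 (edgeR adjusted p = 0.0264) was no longer past the test once DMSO replicate 1 (0.0659), DMSO replicate 3 (0.0564) or NCD replicate 2 (0.0702) was left out. AIMP2 had 50.1, 41.5 and 49.1 CPM with DMSO and 53.9, 51.8 and 43.6 CPM with NCD, with overlap and no change past the test (log2 fold change 0.09, edgeR adjusted p = 0.485). With scaling by library totals neither AIMP1 nor EEF1E1 passed the test, whereas AIMP2 did with a log2 fold change of 0.28.

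Synthetases fall into class I and class II by the fold of the catalytic domain. Among the mitochondrial genes, the 9 of class I had a median log2 fold change of -0.70, with 2 higher and 7 lower at any fold, and the 8 of class II had a median of 0.13, with 3 higher, 3 lower and 2 not past the test, beside 35.3% higher and 34.1% lower over all tested genes. The median span was 53.9 kb in the former and 17.9 kb in the latter, and neither the difference between the classes nor the part of span in it was tested. Among the cytosolic genes, with EPRS1 left out because it holds a domain of each class, the 9 of class I had a median of -0.28 and the 10 of class II a median of 0.19. FARS2, WARS2, LARS2 and NARS2, with the largest falls, came from both classes.

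The changes of the 40 genes moved with gene span, the distance from the first to the last annotated base. The Spearman correlation between span and log2 fold change was -0.57 over the 40 genes, -0.686 over the mitochondrial and -0.436 over the cytosolic genes. It was -0.503 over the 14692 tested genes with an annotated span, measured in the same 6 libraries. Over 100 kb, 67.0% of all tested genes were differentially expressed lower and their median log2 fold change was -1.46. FARS2 (568.1 kb), LARS2 (160.9 kb), NARS2 (138.9 kb) and WARS2 (109.5 kb) are the 4 members of that length, with a median of -2.22, and no cytosolic gene reached it.

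From 50 to 100 kb the median of all tested genes was -0.31, 15.3% were differentially expressed lower and 1208 of 2431 were lower at any fold. The 6 cytosolic genes there had a median of -0.76, with 2 differentially expressed lower and all 6 lower at any fold. FARSB (85.8 kb) is of this length. From 20 to 50 kb the medians were 0.31 for 10 cytosolic genes, 0.15 for 4 mitochondrial genes and 0.18 for all tested genes, and below 20 kb they were 0.19 for 4, 0.39 for 6 and 0.37 for all. WARS1 (43.0 kb), SARS1 (24.3 kb) and TARS2 (20.2 kb) came from the 20 to 50 kb group, in which 13.9% of all tested genes were differentially expressed higher. MARS2, the shortest of the 40 genes at 3.02 kb, was the member under 20 kb that was differentially expressed lower, as were 4.91% of all tested genes of that length. AARS2 (13.7 kb) and VARS1 (18.4 kb) were lower at any fold, as were 823 of 5868 tested genes under 20 kb. The part of span in any of these changes was not tested.

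**Figure D4:**
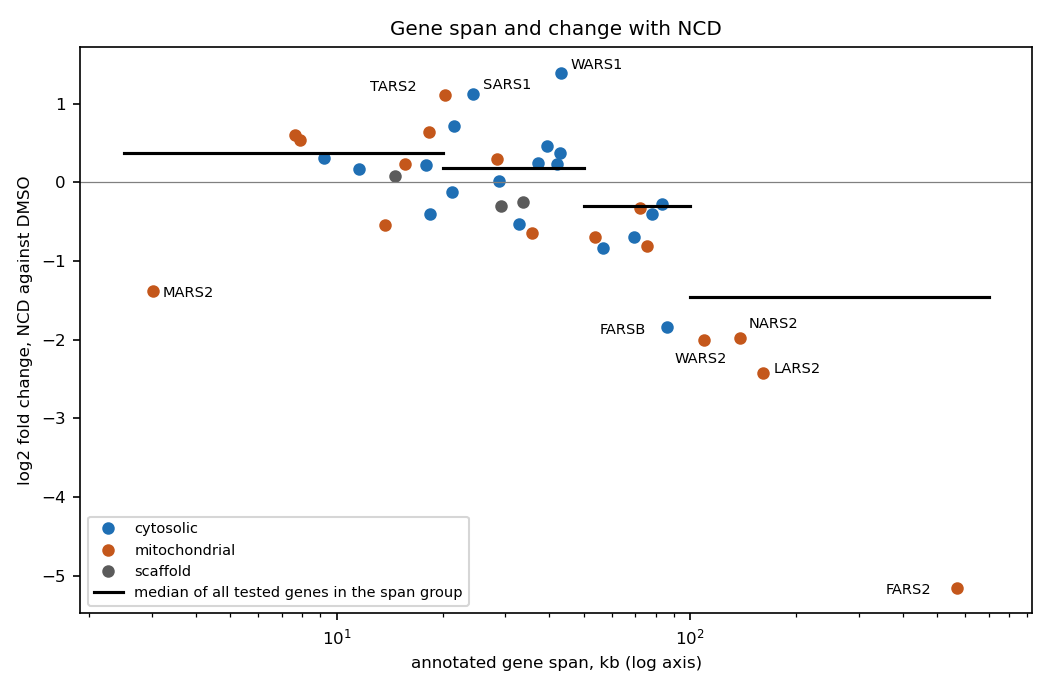
Log2 fold change (y axis, NCD against DMSO) of each gene reported by name against its annotated span in kb on a log axis, with horizontal lines at the median of all tested genes below 20, from 20 to 50, from 50 to 100 and above 100 kb. The 4 mitochondrial genes above 100 kb sit at or below -1.98, under the line of all tested genes at -1.46, and MARS2 at 3.02 kb sits at -1.38, far below its line at 0.37.

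ATF4 with a C/EBP partner binds the C/EBP-ATF response element, and promoters were therefore searched for its core TGATGNAA on both strands. The window, from RefSeq (GRCh38.p14), ran from 250 bases before to 50 after the annotated start and was given for 33 of the 40 genes. The core was found in 7 of 16 cytosolic genes (43.8%), in 1 of 14 mitochondrial genes (7.14%) and in none of the 3 scaffold genes, beside 4.46% of 27305 genes with a window and 2.68% of the 11059 tested among them. The matches are shown in 30 bases each, read 5′ to 3′ on the strand of the gene, with the core in capitals, either as spelled or as its reverse complement.
TARS1, chr5:33440956-33440985, plus strand: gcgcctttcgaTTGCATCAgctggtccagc
GARS1, chr7:30594834-30594863, plus strand: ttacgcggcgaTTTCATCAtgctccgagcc
IARS1, chr9:92293692-92293721, minus strand: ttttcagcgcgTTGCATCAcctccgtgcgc
CARS1, chr11:3057407-3057436, minus strand: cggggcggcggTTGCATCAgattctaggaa
MARS1, chr12:57488053-57488082, plus strand: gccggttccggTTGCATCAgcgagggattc
AARS1, chr16:70289675-70289704, minus strand: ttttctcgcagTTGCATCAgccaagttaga
NARS1, chr18:57621804-57621833, minus strand: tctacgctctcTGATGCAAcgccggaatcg
YARS2, chr12:32756076-32756105, minus strand: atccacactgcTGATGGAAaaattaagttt

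Of the 7 cytosolic matches, 6 hold the same 8 bases, TTGCATCA or its reverse complement TGATGCAA. The genes with a match did not move as 1 group. Their log2 fold changes ran from -0.83 for CARS1 to 0.71 for NARS1, with IARS1 at -0.28, TARS1 at 0.02, MARS1 at 0.23, AARS1 at 0.25, YARS2 at 0.29 and GARS1 at 0.46. WARS1, SARS1 and TARS2, the genes differentially expressed higher, had no match in their windows. A match is a run of letters in the reference, and binding was not measured.

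The WARS1 window was also searched for GAAA, any 2 bases and again GAAA, a core of the interferon-stimulated response element, a search chosen after the WARS1 values were seen. It was found in 4.38% of the 27305 genes with a window, in 3.95% of those tested, and in 2 of the 33 members, WARS1, which rose, and EARS2, which fell at any fold. The match of WARS1 lay before the RefSeq start on which its window was built, and inside the longer GENCODE span given above. Both are shown in the same way, EARS2 as the reverse complement of the core.
WARS1, chr14:100375384-100375413, minus strand: ttttcagaaggGAAACTGAAAgaaagaggg
EARS2, chr16:23557555-23557584, minus strand: ccctgccacgcTTTCGCTTTCccaagctga

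Genes that take part in the response to amino acid shortage were set beside the synthetases. Of 8 such genes, 6 were differentially expressed higher, against 13.5% of all tested genes. The median log2 fold change was 1.70, beside 0.04 over all tested genes. The 6 are given here. They were ASNS, which makes asparagine (2.66), SESN2, a leucine sensor that restrains mTORC1 (2.53), DDIT3, a stress transcription factor (2.20), TRIB3, a pseudokinase induced by ATF4 (1.93), CEBPG (1.47) and CEBPB (1.39), both C/EBP transcription factors. ATF4 rose at any fold (0.61, edgeR adjusted p = 7.44e-05), and EIF2AK4 was differentially expressed lower (-1.12). EIF2AK4 spans 101.4 kb, and 67.0% of all tested genes over 100 kb were differentially expressed lower. Beside these rises, the largest increase of a synthetase gene was the 1.39 of WARS1. ATF4 is regulated largely at translation, which these libraries do not measure.

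Of 25 other genes of tRNA charging and delivery, 2 were differentially expressed higher and 2 lower, against 13.5% and 17.5% of all tested genes. At any fold 7 were higher and 7 lower, against 35.3% and 34.1%, with a median log2 fold change of 0.03. MTFMT, which adds the formyl group to the methionyl-tRNA that MARS2 makes, rose from a mean of 11.4 to 23.7 CPM (log2 fold change 1.05, edgeR adjusted p = 3.38e-05) while MARS2 fell. PSTK (0.53) and SEPSECS (0.45), which convert the seryl-tRNA that SARS1 makes for selenocysteine, and SEPHS2 (0.95), which makes the selenium donor, rose at any fold. GTPBP2, a ribosome rescue factor, was differentially expressed higher (1.05). DTD1, a deacylase that removes D-amino acids from tRNA and lies in a gene of 178.8 kb, fell by 2.37 on the log2 scale (edgeR adjusted p = 1.72e-07), and NEMF, which acts on stalled ribosomes, was also differentially expressed lower (-1.20). GATB, a subunit of the mitochondrial amidotransferase that makes glutaminyl-tRNA where no mitochondrial QARS exists, was lower at any fold (-0.94), while its partners QRSL1 and GATC had log2 fold changes of 0.03 each and did not pass the test. XPOT, the nuclear exporter of tRNA, was higher at any fold (0.25), and the elongation factor EEF1A1 had -0.11 and did not pass the test.

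HARS1 and HARS2, the cytosolic and mitochondrial histidyl enzymes, lie head to head on chromosome 5, with 84 bases between their RefSeq starts. Both were higher with NCD at any fold, by log2 fold changes of 0.22 and 0.54. In GENCODE their exons share 437 bases on opposite strands, and HARS2 shares a further 152 with ZMAT2 on its own strand, so both counts are uncertain.

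Several other members share exonic bases with a neighbour, and the sources do not give the strandedness of the counting. MARS1 shares 355 bases with DDIT3 on the opposite strand, and DDIT3, which rose, reached 65.0% of the MARS1 counts in a library. VARS2 shares 1858 bases with GTF2H4 on the same strand, with up to 149% of its counts, and AIMP2 shares 532 with EIF2AK1. SARS2, EARS2, KARS1, CARS2, YARS1, GARS1, AIMP1 and WARS1 also overlap a counted gene in their exons, for WARS1 one with at most 4.33% of its counts. FARS2, LARS2, NARS2, FARSB, SARS1, TARS2 and MARS2 share no exonic base with a gene of over 1 count in any library.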

How the data were processed

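RNA-seq of MDA-MB-231 cells (NCD or DMSO, 3 libraries each) was used. The authors aligned reads with HiSat2 and deposited expected counts per Ensembl gene from RSEM, not normalized. The submitters' processing notes name GRCh38 (hg38), while tool versions, annotation release and strandedness were not given in the sources used here. In each file 25 stray lines without a gene were skipped. Symbols were found for 62666 of 63241 identifiers, and spans and exons came from GENCODE release 29 (58228 identifiers, at least 99.4% of counts). The members, lists and tests were chosen with earlier results of these data known.

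Expected counts were rounded and tested with edgeR 4.0.16 in R 4.3.3 (filterByExpr, TMM, glmQLFit and glmQLFTest, Benjamini-Hochberg adjustment over 15295 genes). TMM factors were 0.9115 to 0.9494 with DMSO and 1.059 to 1.092 with NCD. Each standard error was taken from the size of the log2 fold change over the root of its F statistic. The test was tried on simulated counts first. Libraries of a group were compared by chi-square over genes, and no pair was alike within sampling noise (at least 2.063 per degree of freedom). Ratios within a library used log2 CPM with a prior count of 2 and exact permutation tests (scipy 1.17.1). Totals per library are those given above, and genes with few counts, such as FARS2 with NCD, are measured less precisely.

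Values in every library were given for differentially expressed members, for scaffold genes and for GARS1, KARS1, QARS1 and WARS1. NARS1 was added after its values were seen. Alternatives were DESeq2 1.42.0, limma-voom (limma 3.58.1), library totals or ribosomal protein genes as scaling, a low-count filter that was absent or set at 10 counts per library, a prior count of 0.5, no fold threshold, a block for the replicate number, and each library omitted in turn. Protein comparison was not run. Some members enter the counts, sums and medians but are not reported here by name. Tables and figures used Python 3.11.15, pandas 2.3.3, numpy 2.4.6 and matplotlib 3.10.9.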

Additional observations from a re-analysis of the deposited data

How the results depend on the processing

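The 10 differentially expressed members kept their direction and their side of the threshold under every alternative that gave them a value. FARS2 was removed by the filter of 10 counts per library, which left 4 mitochondrial genes differentially expressed lower. The cytosolic median moved to 0.29 with library totals. The mitochondrial median was -0.56 with DESeq2, -0.34 with library totals and -0.45 with the filter of 10 counts. For the scaffold genes, library totals gave 1 higher and 0 lower at any fold and a median of -0.0471, and ribosomal protein genes as reference gave 1 lower. With single libraries left out, medians ran from 0.05 to 0.11 (cytosolic), from -0.60 to -0.54 (mitochondrial) and from -0.28 to -0.21 (scaffold). Counts at any fold then ran from 6 to 10 higher and 7 to 8 lower (cytosolic), from 4 to 6 higher with 10 lower (mitochondrial), and from 0 to 2 lower (scaffold). Libraries sharing a replicate number did not deviate together (correlations of 0.216, -0.185 and 0.0226), and the fit with the replicate block left the members' counts as they were, with medians of 0.09 and -0.54. Values near zero reversed: KARS1 with library totals (0.0759), TARS1 with DESeq2 (-0.000675) and from -0.0208 to 0.0405 without single libraries, AIMP2 from -0.003885 (without DMSO replicate 2) to 0.157, and the log2 EPRS1 to EARS2 ratio from -0.003089 (without NCD replicate 3) to 0.384. The call at any fold was lost by 5 members and gained by 5 with library totals, and lost by 7 with ribosomal protein genes as reference. The causes were not tested.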
